A study of Mus musculus with 9 samples.

Results

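Of 306 named probes of the study's supplementary table of altered genes, 47 probes, 1 for each of 47 genes, were low only in craniofacial neural crest on a fixed margin. A probe was taken when its lowest log2 value over the 7 other arrays lay at least 1 above its highest value on the 2 craniofacial neural crest arrays. Of the 56 named probes past that margin, 9 were left out because all 3 trunk neural crest arrays lay at least 1 above every other array. Hox genes and Stmn4, Scg5, Reep2, Rgs4, Chga, Ednrb and Fabp7 were left out by name. The genes were thus chosen by their low values in craniofacial neural crest, and every difference from those values is given as a description, without a test. The same margin was met by 159 of the 23473 probes on the array, or 0.677%. Of these, 90 were outside the study's table and carry no gene name here.

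The arrays held RNA of cells sorted at E12.5 from mouse embryos of the P0-Cre/Floxed-EGFP cross. In these embryos Cre is driven by the promoter of the myelin protein zero gene P0 and switches on EGFP from a CAG-CAT-EGFP transgene, and the mice were of C57/BL6J origin crossed onto ICR for several generations. All 4 groups came from embryos with both transgenes. EGFP+ cells were taken from the craniofacial region (Cp, 2 arrays) and the trunk (Tp, 3 arrays), and EGFP- cells from the same regions (Cn and Tn, 2 arrays each), with heart fields removed from the trunk. EGFP marks any cell with a history of P0-Cre activity and its descendants, and the EGFP- groups are mixtures of all other cells of a region. The study describes its samples as duplicated biologically, but neither its text nor the labels say how many embryos a sample held or whether samples came from separate litters, so the error behind each p-value is the spread of these arrays. In such bulk RNA, fewer cells of a type and less RNA per cell cannot be told apart.

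Neural crest cells leave the neural tube early in development and migrate through the embryo. Those of the trunk form sensory and sympathetic neurons, Schwann cells, satellite glia and pigment cells. Those of the head also form much of the skeleton and connective tissue of the face. The central nervous system, skeletal muscle, blood and surface epithelium do not come from the crest. Markers were measured beside the groups. The summed processed intensity of 5 genes of craniofacial crest mesenchyme (Barx1, Lhx8, Cart1, Pax7 and Omd) was 818 to 1102 in Cp, 44.4 to 60.0 in Tp, 361 to 378 in Cn and 71.1 to 72.5 in Tn. That of 8 genes of peripheral neurons was 236 to 268 in Cp, 2888 to 3763 in Tp, 225 to 254 in Cn and 363 to 381 in Tn. That of 5 genes of the central nervous system was 53.1 to 65.7 in Cp, 338 to 422 in Tp, 764 to 983 in Cn and 65.7 to 72.1 in Tn. Within these lists, Chrna3 on the Cp arrays and Pax7 on the Tp arrays were the genes not above the blank limit on any array of a group. The part of any cell type in the results below was not tested.

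Values are log2 of the intensity the authors processed and deposited, in which every array has a median of 25. The median spot was 1.81 (Tp replicate 3) to 3.21 (Tn replicate 2) times the mean of the blank spots, and 72.8% to 90.2% of probes lay above a blank limit, the mean of the blank spots plus 2 SD, both read as scanner signal before the authors' processing. Of the 47 genes, 43 were above it on all 9 arrays. Cxcl4 and 3110035E14Rik were above it on neither Cp array and Lhx9 on 1 of 2. The median SD within a group was 0.13 to 0.20 for the 47 genes, which were chosen on these arrays. Over all probes it was 0.20 (Cn) to 0.31 (Tp). By scan time the arrays fell into 4 scans: all first replicates in scan 1, the second craniofacial replicates in scan 2, the second trunk replicates in scan 3 and Tp replicate 3 alone in scan 4.

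By what their products are known to do, 5 are parts of the neuronal cytoskeleton, axon or cell surface, 6 of secretory granules and vesicle traffic and 3 of signalling, 4 are transporters or subunits of them, and 8 act in transcription, RNA binding or neurogenesis. A further 6 belong to epithelia and cell polarity, 2 to striated muscle and 2 to blood cells, and 11 were not assigned. Over the 47, the median difference from Cp was 2.86 in Tp, 2.90 in Cn and 2.30 in Tn on the log2 scale. The margin between Cp and the nearest other array was 1 to under 2 for 31 genes, 2 to under 3 for 12 and 3 or more for 4. That nearest array was a Tn array for 25 genes, a Tp array for 16 and a Cn array for 6. In 13 of the 16 it was Tp replicate 3.

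**Figure D1:**
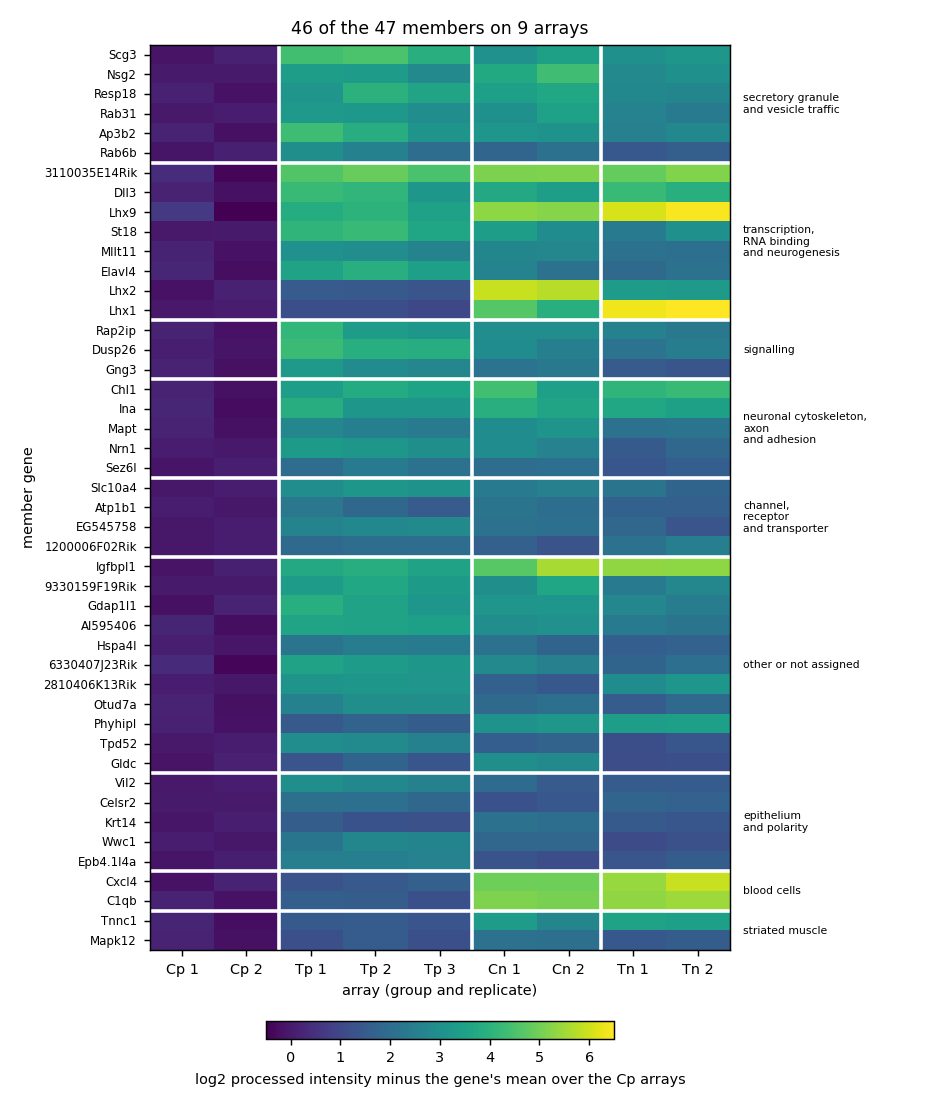
Heat map of 46 of the 47 genes (rows, by role) on the 9 arrays (columns, by group and replicate). Colour is log2 processed intensity minus the gene's mean over the 2 Cp arrays, which are dark throughout because the genes were chosen so; Cxcl4 and 3110035E14Rik were not above the blank limit there. In Tp the darkest genes are Lhx1, at 1.14 above the Cp mean, Mapk12 at 1.32 and Krt14 at 1.35, followed by Lhx2, Tnnc1, C1qb and Cxcl4 at 1.43 to 1.47.

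The label holds to a different degree across the genes. The mean of Tp was placed on a scale on which 0% is the mean of Cp and 100% the mean of the Cn and Tn means. On it, 30 genes lay at 100% or more, 11 between 50% and 100%, and 6 under 50%. The 6 were Lhx1 (20.9%), Cxcl4 (27.6%), C1qb (27.8%), Lhx2 (31.4%), Tnnc1 (44.7%) and Phyhipl (48.2%). For them both crest groups were low, with Cp the lower, and "low only in Cp" rests on the margin of 1. The 3 signalling genes lay at 133% to 161%, and the 6 granule and vesicle genes at 91.5% to 145%. Just inside the margin were Lhx1 (1.01) and Mapk12 (1.01), and just outside Pkp3 (0.96), which encodes a desmosomal plakophilin, and Cacng2 (0.94), which encodes a subunit that escorts glutamate receptors. In all 4 the array that set the margin was Tp replicate 3.

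**Figure D2:**
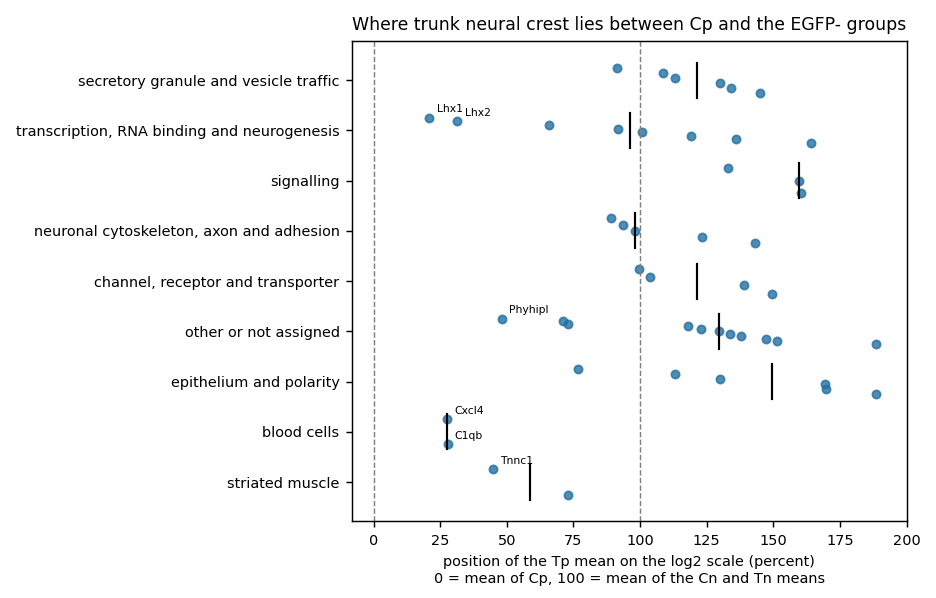
Position of the Tp mean for each of the 47 genes (points), by role (rows), in percent of the distance on the log2 scale from the mean of Cp (0, dashed) to the mean of the Cn and Tn means (100, dashed). Short black lines are the medians of each role. Names are given for the 6 genes under 50%, among them both blood cell genes.

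Promoter windows were looked up because the 47 genes share one pattern across the groups. RefSeq windows of 300 bases on GRCm38.p6, from 250 before to 50 after a start, were at hand for 35 of the 47 genes, with 41 windows in all. The E-box CAGCTG, a form of CANNTG and the same on both strands, was in a window of 12 of the 35 genes (34.3%), against 17.4% of 17492 protein-coding genes with a window. Another form, CAGATG, was in 8 (22.9% against 16.7%), and CANNTG of any form in 25 (71.4% against 72.1%). Of the other motifs searched on both strands, GGGCGG was in 18 (51.4% against 49.2%), TGACG in 9 (25.7% against 26.2%), and TAATTA (5.71% against 5.37%), TATAAA (5.71% against 14.8%) and TGACGTCA (5.71% against 2.54%), which holds TGACG, in 2 each. TTCAGCACC, the left part of the RE1 element bound by REST, was in 1, Nsg2 (2.86% against 0.480%), in another window of that gene than the 1 printed below. The right part of that element, in 2 spellings, was in none (0.698% and 0.223% of all genes). These 11 motifs were searched with the genes known and are a description of letters. Below are the windows of the 4 genes with the largest margin among the 12 that hold CAGCTG, which is in capitals. It begins 7 bases before the start in Dll3, a Notch ligand of neural progenitors, 135 before it in Ina, a neurofilament protein, and 73 before it in Resp18, a protein of the secretory pathway. In Nsg2, a protein of neuronal vesicle traffic, it begins 4 bases after the start.
Dll3, chr7:28301736-28302035, minus strand: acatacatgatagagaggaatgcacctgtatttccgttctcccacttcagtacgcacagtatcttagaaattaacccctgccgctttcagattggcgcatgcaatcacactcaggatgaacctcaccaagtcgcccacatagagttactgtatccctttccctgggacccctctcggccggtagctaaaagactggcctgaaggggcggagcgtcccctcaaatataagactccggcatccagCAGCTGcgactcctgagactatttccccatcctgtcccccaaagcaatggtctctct
Ina, chr19:47014431-47014730, plus strand: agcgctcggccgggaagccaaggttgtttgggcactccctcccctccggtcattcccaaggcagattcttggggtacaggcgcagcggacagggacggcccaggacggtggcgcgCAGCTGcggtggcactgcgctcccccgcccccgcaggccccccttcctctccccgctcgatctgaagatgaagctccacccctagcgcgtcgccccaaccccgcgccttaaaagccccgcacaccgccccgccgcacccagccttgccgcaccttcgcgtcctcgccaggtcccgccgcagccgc
Nsg2, chr11:32000169-32000468, plus strand: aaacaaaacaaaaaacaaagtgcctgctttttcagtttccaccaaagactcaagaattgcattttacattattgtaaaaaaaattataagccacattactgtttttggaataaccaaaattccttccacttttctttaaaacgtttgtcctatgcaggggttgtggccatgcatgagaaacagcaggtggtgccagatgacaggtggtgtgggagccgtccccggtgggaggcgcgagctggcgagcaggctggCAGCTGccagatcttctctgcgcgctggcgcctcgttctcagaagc
Resp18, chr1:75278366-75278665, minus strand: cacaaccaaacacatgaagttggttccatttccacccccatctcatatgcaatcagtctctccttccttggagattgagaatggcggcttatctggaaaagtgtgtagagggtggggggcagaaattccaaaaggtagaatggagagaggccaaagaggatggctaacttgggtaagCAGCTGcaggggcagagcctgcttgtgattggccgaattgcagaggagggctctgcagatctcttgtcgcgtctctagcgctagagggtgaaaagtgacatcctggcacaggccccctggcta

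The genes of secretory granules and vesicle traffic had a median margin of 2.47. Scg3, which encodes a granin of dense-core granules, had values of 4.33 and 4.61 in Cp, 8.85, 8.99 and 8.40 in Tp, 7.51 and 7.94 in Cn and 7.50 and 7.67 in Tn. Nsg2 had 5.95 and 5.94 in Cp, 9.36, 9.29 and 8.73 in Tp, 9.70 and 10.30 in Cn and 8.74 and 8.96 in Tn. The highest group was thus Tp for Scg3 (19.3 times the Cp level) and Cn for Nsg2 (16.6 times). Resp18 had 2.11 and 1.80 in Cp, 5.09, 5.94 and 5.55 in Tp, 5.41 and 5.65 in Cn and 4.73 and 4.66 in Tn. Rab31, a small GTPase of endosomal traffic, had 7.79 and 7.85 in Cp, 11.08, 11.04 and 10.75 in Tp, 10.83 and 11.32 in Cn and 10.42 and 10.24 in Tn. Ap3b2, the neuronal beta subunit of the AP-3 adaptor, had 2.87 and 2.51 in Cp, 7.01, 6.55 and 5.80 in Tp, 5.88 and 5.78 in Cn and 5.24 and 5.46 in Tn. For Resp18, Rab31 and Ap3b2 the lowest array outside Cp was a Tn array. The sixth gene, Rab6b, had the smallest margin, 1.31. Of the 4 other named genes of this list, Chga was left out by name and also had every Tp array at least 1 above all other arrays, so its difference from Tn is no test. Of the 3 others, 2 were higher in Tp than in Tn in limma, Pcsk2, a prohormone convertase, by 1.76 and Syt11, a synaptotagmin, by 1.30, and 0 were lower. In that comparison 77.5% of all 306 named probes that the study selected passed, and 24.8% did between Cn and Tn, so this count and those for the lists below are a description. Between Cn and Tn 0 of the 4 passed. Each of the 4 had all 7 other arrays above both Cp arrays.

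The 8 genes of transcription, RNA binding and neurogenesis held both the widest margin and the widest spread. 3110035E14Rik, now Vxn, which encodes a factor known from Xenopus to promote neurogenesis, had values of 1.25 and 0.47 in Cp, 5.45, 5.73 and 5.35 in Tp, 5.98 and 6.01 in Cn and 5.71 and 6.04 in Tn. Since neither Cp spot read above the blank limit, it was at least 20.0-fold higher in Tp, 28.1-fold in Cn and 25.8-fold in Tn, taking for Cp the higher of the gene's own processed value and the limit carried to the processed scale on each array. The other 3 groups lay within 0.49 of each other by their means. Dll3 had 2.79 and 2.40 in Cp, 6.80, 6.71 and 5.79 in Tp, 6.32 and 6.01 in Cn and 6.80 and 6.51 in Tn, where Tp replicate 3 lay below the other 6 arrays outside Cp. Lhx9, a LIM homeodomain factor, had 1.67 and 0.33 in Cp, 4.83, 5.03 and 4.51 in Tp, 6.30 and 6.23 in Cn and 7.09 and 7.44 in Tn. The groups of Lhx9 stood in the order Cp, Tp, Cn, Tn with no overlap, and its Cp arrays had the largest SD of any of the 47 genes, 0.94.

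St18, a zinc finger transcription factor, had 3.03 and 3.05 in Cp, 7.12, 7.24 and 6.65 in Tp, 6.45 and 5.94 in Cn and 5.39 and 6.05 in Tn. Mllt11, first known as a fusion partner of the MLL gene in leukaemia and found in developing neurons, had 8.89 and 8.57 in Cp, 11.78, 11.65 and 11.35 in Tp, 11.44 and 11.48 in Cn and 10.84 and 10.78 in Tn. Elavl4, which encodes the RNA-binding protein HuD of early neurons, had 6.15 and 5.66 in Cp, 9.43, 9.81 and 9.34 in Tp, 8.55 and 8.05 in Cn and 7.82 and 8.03 in Tn. In these 3 the Tp mean was the highest, and for St18 and Elavl4 every Tp array lay above every other array. A second probe of Elavl4 had 6.34 and 6.28 in Cp, 10.14, 10.25 and 10.18 in Tp, 8.80 and 8.89 in Cn and 8.15 and 8.07 in Tn. It had the same order of groups and was one of the 9 probes left out as highest in Tp. The others were Th, Gpr56, Cartpt, Chrna3, D11Bwg0517e, Mmp24, Nhlh2 and Hes6. Of the 8 other named probes of this list, 3 (the second Elavl4 probe, Nhlh2 and Hes6) were among these 9, so that the rule fixed their Tp excess. Of the 5 others, 4 were higher in Tp than in Tn in limma, from 2.63 for Insm1 to 3.97 for Neurod1, both regulators of neurogenesis, and 1 was lower, Nova1, a neuronal splicing factor (-2.00, adjusted p = 0.0031). In Cn against Tn, 1 of the 8 passed in limma, Insm1, a zinc finger factor of neuroendocrine cells, with 1.63 (adjusted p = 0.0401). For 6 of the 8, all 7 other arrays lay above both Cp arrays.

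Lhx1 and Lhx2, LIM homeodomain factors that mark subsets of neurons and regions of the central nervous system, were the genes in which the EGFP- groups differed most. Lhx1 had values of 1.60 and 1.65 in Cp, 2.81, 2.82 and 2.66 in Tp, 6.27 and 5.53 in Cn and 7.98 and 8.40 in Tn, so that both crest groups were low and Tn was the highest. Lhx2 had 4.40 and 4.70 in Cp, 6.06, 6.01 and 5.89 in Tp, 10.45 and 10.30 in Cn and 7.88 and 7.82 in Tn. Here Cn was the highest, 56.8 times the Cp level, and Tp was 2.70 times the Cp level.

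The neuronal cytoskeleton, axon and adhesion genes had a median Tp position of 98.0%. Chl1, an adhesion molecule of the L1 family, had 2.46 and 2.12 in Cp, 5.70, 6.11 and 5.86 in Tp, 6.66 and 5.75 in Cn and 6.36 and 6.54 in Tn. Ina had 6.14 and 5.63 in Cp, 9.74, 9.10 and 9.09 in Tp, 9.78 and 9.48 in Cn and 9.57 and 9.36 in Tn. Mapt, which encodes the microtubule-associated protein tau, had 6.91 and 6.54 in Cp, 9.47, 9.24 and 9.08 in Tp, 9.63 and 9.84 in Cn and 8.87 and 8.92 in Tn. For Ina the arrays of Tp, Cn and Tn overlapped, at 10.8 to 13.4 times the Cp level by group means. For Chl1, at 12.1 to 17.9 times, Cn overlapped both other groups, and the Tp arrays lay below the Tn arrays. Nrn1, neuritin, a membrane-anchored protein of growing neurites, had 3.39 and 3.34 in Cp, 6.67, 6.58 and 6.36 in Tp, 6.28 and 5.97 in Cn and 4.84 and 5.24 in Tn. Sez6l, a membrane protein of neurons, had 2.06 and 2.25 in Cp, 4.15, 4.53 and 4.29 in Tp, 4.16 and 4.21 in Cn and 3.53 and 3.76 in Tn. Both had their lowest level outside Cp in Tn. All 4 other named genes of this list passed as higher in Tp than in Tn in limma: Stmn4 by 2.01, Gap43 by 2.39, Nefl by 3.01 and Uchl1 by 2.15. Only 2 of these 4 had all 7 other arrays above both Cp arrays. Nefl was higher in Cp (6.77 and 6.57) than in Cn (6.20 and 6.34). Gap43 was higher in Cp (9.80 and 9.37) than in Tn (9.31 and 9.02). Between Cn and Tn only Stmn4 of the 4 passed (1.86, adjusted p = 0.0081).

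The 3 signalling genes had their highest levels in Tp. Rap2ip, now Rundc3a, whose product binds the small GTPase Rap2, had 3.72 and 3.40 in Cp, 7.70, 6.94 and 6.77 in Tp, 6.5 and 6.48 in Cn and 6.14 and 5.88 in Tn. Dusp26, a dual-specificity phosphatase, had 3.66 and 3.47 in Cp, 7.82, 7.48 and 7.43 in Tp, 6.48 and 6.08 in Cn and 5.74 and 6.0 in Tn. Gng3, the gamma subunit of neuronal G proteins, had 7.37 and 7.0 in Cp, 10.49, 10.06 and 9.93 in Tp, 9.36 and 9.53 in Cn and 8.69 and 8.56 in Tn. In each of the 3 every Tp array lay above every array of the other groups. Of the 4 other named genes of this list, 3 passed as higher in Tp than in Tn in limma, Rgs4 by 4.06, Camk2b by 2.97 and Gng2 by 1.21. Only 2 of the 4 had all 7 other arrays above both Cp arrays. In Cn against Tn, Camk2b passed with 1.96 (adjusted p = 0.0053).

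The 4 transporter genes had margins of 1.26 to 1.71. Slc10a4, a transporter-like protein of synaptic vesicles, had 2.43 and 2.50 in Cp, 5.40, 5.68 and 5.53 in Tp, 4.82 and 5.01 in Cn and 4.66 and 4.21 in Tn. EG545758, now Slc10a4l, had 2.47 and 2.58 in Cp, 5.16, 5.29 and 5.38 in Tp, 4.67 and 4.58 in Cn and 4.32 and 3.88 in Tn. Both had levels in the order Cp, Tn, Cn, Tp with no overlap. The genes lie 419354 bases apart on chromosome 5 and are named as relatives, and signal shared between their probes cannot be told apart from 2 transcripts. Atp1b1, the beta subunit of the sodium pump, had 5.62 and 5.54 in Cp, 7.85, 7.41 and 7.10 in Tp, 7.77 and 7.61 in Cn and 7.25 and 7.21 in Tn. 1200006F02Rik, now Slc46a3, a lysosomal transporter, had 2.42 and 2.49 in Cp, 4.34, 4.45 and 4.45 in Tp, 4.1 and 3.75 in Cn and 4.55 and 4.96 in Tn, with the highest level in Tn. Of the 8 other named channel and receptor genes, Gpr56 and Chrna3 were among the probes left out as highest in Tp. Of the 6 others, 3 passed as higher in Tp than in Tn in limma, with Kcnmb2 at 3.94 and Scn10a, a sodium channel of sensory neurons, at 3.06. The 3 that passed as lower were Cacng2 (-2.36), Gria1 (-1.65) and Gabra4 (-1.31), subunits of glutamate and GABA receptors or their escort. Between Cn and Tn 0 of the 8 passed. Only 3 of the 8 had all 7 other arrays above both Cp arrays, and Gabra4 was highest in Cp (4.33 and 4.36).

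Among the epithelium and polarity genes the margins were 1.07 to 1.49, and the Tp mean was the highest for 5 of 6. Vil2, now Ezr, which encodes ezrin, a link between membrane and actin, had 5.22 and 5.26 in Cp, 8.22, 8.0 and 7.82 in Tp, 7.19 and 6.76 in Cn and 6.77 and 6.78 in Tn. Celsr2, a cadherin of planar cell polarity, had 2.14 and 2.14 in Cp, 4.24, 4.21 and 3.98 in Tp, 3.41 and 3.53 in Cn and 3.93 and 3.85 in Tn. For Vil2 and Celsr2 every Tp array lay above every array of the other groups. Krt14, a keratin of basal epidermis, had 7.12 and 7.29 in Cp, 8.76, 8.46 and 8.44 in Tp, 9.34 and 9.24 in Cn and 8.69 and 8.58 in Tn. Wwc1, a regulator of the Hippo pathway, had 4.96 and 4.88 in Cp, 7.14, 7.63 and 7.57 in Tp, 6.72 and 6.74 in Cn and 6.05 and 6.14 in Tn. Krt14 was the 1 gene of the 6 highest in Cn, although with the ring around each spot as background its Cn minus Tn difference turned from 0.66 to -0.43. The summed intensity of 3 genes of surface epithelium (Krt14, Pkp3 and Tcfap2c) was 212 to 224 in Cp, 378 to 476 in Tp, 728 to 768 in Cn and 422 to 444 in Tn. Krt14 is in this sum and was chosen for its low Cp level, so the sum is no separate measure of epithelium. Of the 3 other named genes of this list, Myo5b passed in Tp against Tn in limma (1.69, adjusted p = 0.0024). Ap1m2, an adaptor subunit of epithelial cells, passed in Cn against Tn in limma (1.31, adjusted p = 0.0472). Each of the 3 had all 7 other arrays above both Cp arrays, by less than the margin of 1.

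Both blood cell genes stood near Cp in Tp. C1qb, the B chain of complement C1q of macrophages, had 1.67 and 1.32 in Cp, 3.10, 3.07 and 2.70 in Tp, 6.63 and 6.56 in Cn and 6.84 and 6.98 in Tn. Cxcl4, now Pf4, platelet factor 4 of megakaryocytes, had 0.16 and 0.48 in Cp, 1.61, 1.79 and 1.96 in Tp, 5.28 and 5.28 in Cn and 5.73 and 6.23 in Tn. Neither of its Cp spots read above the blank limit, so Cxcl4 was at least 1.61-fold higher in Tp than in Cp, 18.2-fold in Cn and 29.4-fold in Tn. On the processed scale that limit was 1.08 and 1.12 on the Cp arrays, less than 1 below the lowest Tp array. Its place among the 47 genes thus rests on Cp values under the limit. Both blood cell genes were low in both crest groups. The summed intensity of 5 macrophage and mast cell genes, C1qb among them, was 33.2 to 38.1 in Cp, 46.5 to 64.5 in Tp, 349 to 395 in Cn and 554 to 692 in Tn, with all 5 above the blank limit in every group. All 14 other named probes of blood cells passed as lower in Tp than in Tn in limma, with a median of -3.70. Between Cn and Tn 0 of them passed. For 6 of the 14, all 7 other arrays lay above both Cp arrays.

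Tnnc1, the troponin C of heart and slow muscle, had 3.65 and 3.19 in Cp, 4.91, 4.95 and 4.76 in Tp, 6.76 and 6.11 in Cn and 6.95 and 6.88 in Tn. Mapk12, a p38 kinase abundant in skeletal muscle, had 3.18 and 2.80 in Cp, 4.20, 4.51 and 4.19 in Tp, 5.13 and 5.07 in Cn and 4.42 and 4.55 in Tn. The Tp and Tn arrays of Mapk12 overlapped, whereas those of Tnnc1 did not. The summed intensity of 5 skeletal muscle genes was 57.3 to 58.5 in Cp, 65.8 to 114 in Tp, 953 to 1162 in Cn and 1777 to 2569 in Tn. All 11 other named muscle genes passed as lower in Tp than in Tn in limma, with a median of -3.49. In limma 1 of them, the acetylcholine receptor subunit gene Chrna1, was lower in Cn than in Tn (-1.61, adjusted p = 0.0171). For 7 of the 11, all 7 other arrays lay above both Cp arrays.

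Genes not assigned to a role had margins of 1.03 to 3.40. Igfbpl1, an insulin-like growth factor binding protein-like gene, had 2.53 and 2.78 in Cp, 6.39, 6.52 and 6.18 in Tp, 7.34 and 8.23 in Cn and 7.98 and 7.97 in Tn. 9330159F19Rik had 2.37 and 2.38 in Cp, 5.74, 6.08 and 5.68 in Tp, 5.36 and 5.99 in Cn and 4.74 and 5.12 in Tn. Its annotation overlaps that of 6330407J23Rik, now Soga3, by 689 bases on chromosome 10. The latter gene was also a member, with a margin of 1.38. Gdap1l1 had 2.94 and 3.33 in Cp, 7.01, 6.67 and 6.32 in Tp, 6.29 and 6.31 in Cn and 5.87 and 5.57 in Tn. AI595406, now Fbll1, related to the nucleolar protein fibrillarin, had 3.28 and 2.81 in Cp, 6.63, 6.59 and 6.5 in Tp, 5.96 and 6.07 in Cn and 5.45 and 5.23 in Tn. It lies 39515 bases from Wwc1 on chromosome 11, and these 3 pairs were the only ones within 500000 bases among the genes, which lie on 17 chromosomes. Hspa4l, a chaperone of the Hsp110 family, had 3.84 and 3.69 in Cp, 5.95, 6.21 and 6.11 in Tp, 5.89 and 5.51 in Cn and 5.36 and 5.47 in Tn. Tpd52, a protein first described in tumours, had 5.55 and 5.61 in Cp, 8.50, 8.44 and 8.14 in Tp, 7.17 and 7.31 in Cn and 6.77 and 6.96 in Tn. Igfbpl1 was highest in the EGFP- groups, and the rest of these named genes were highest in Tp by their means.

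**Figure D3:**
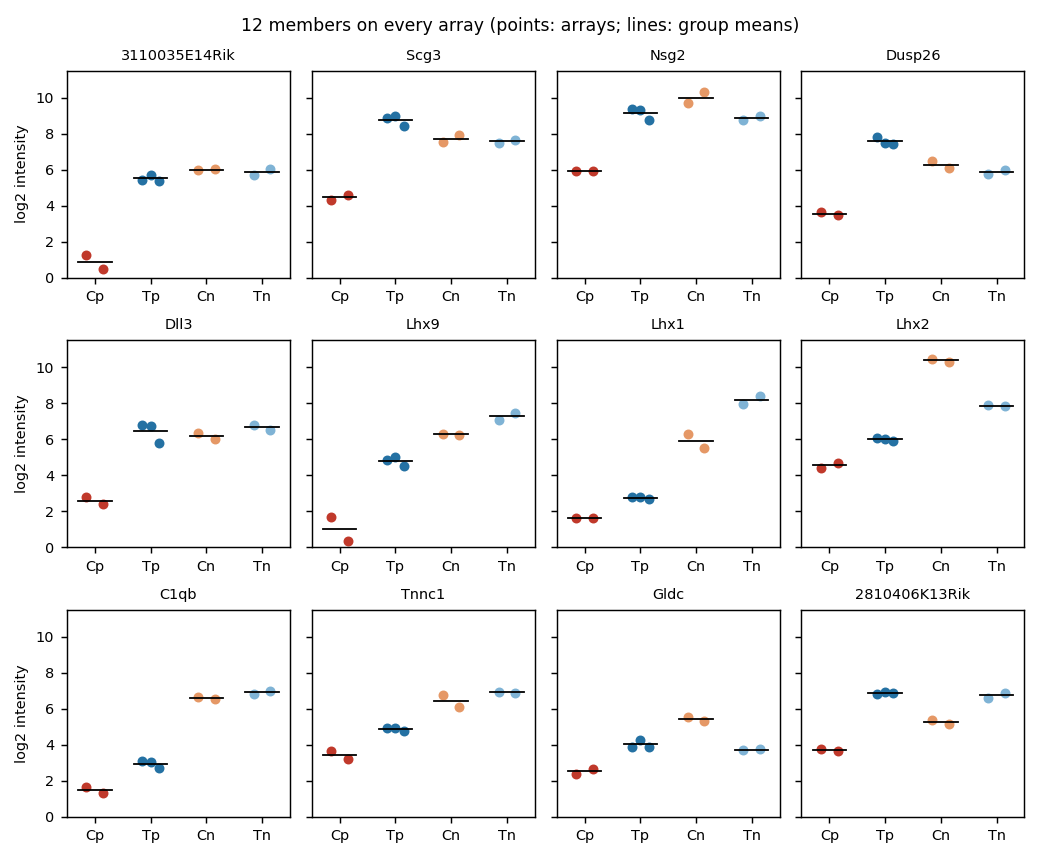
Log2 processed intensity (vertical axis) of 12 of the 47 genes in Cp, Tp, Cn and Tn, with 1 point per array and a line at each group mean. Scg3 and Dusp26 were highest in Tp, Lhx2 and Gldc in Cn, and Lhx1, C1qb and Tnnc1 had Tp near Cp; levels of different genes come from different probes and cannot be set against each other.

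Trunk neural crest was then compared with the other cells of the trunk. No Cp array enters the difference itself. Its standard errors and p-values come from the fit of all 4 groups, so the Cp arrays supply part of the error. Those arrays were also used to choose the genes, so the error is not independent of the choice. The rule bounds the comparison as well, since genes far higher in Tp were left out. The study also chose its table over all 4 groups. In limma, 26 of the 47 genes passed an adjusted p of 0.05, 18 higher and 8 lower in Tp than in Tn. Of all 21807 probes tested, 5.28% passed, 2.24% higher and 3.04% lower. Of the 306 named probes that the study selected, however, 77.5% passed (39.9% higher and 37.6% lower), so the shares among the 47 genes were not above those of the list they came from. Their median difference was 0.69 (0.15 with the ring as background), against -0.03 over all probes. Every Tp array lay above every Tn array for 28 genes (8.96% of all probes) and below for 10 (18.3%).

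The 18 higher genes were all 3 signalling genes, 3 of 6 granule and vesicle genes (Scg3, Ap3b2 and Rab6b), 3 of 6 epithelium and polarity genes (Vil2, Wwc1 and Epb4.1l4a), 2 of 4 transporter genes (Slc10a4 and EG545758), 2 of 8 transcription and neurogenesis genes (Elavl4 and St18), 1 of 5 cytoskeleton and axon genes (Nrn1) and 4 of 11 unassigned genes (Tpd52, 6330407J23Rik, AI595406 and Gdap1l1). Dusp26 was higher by 1.78 on the log2 scale (standard error 0.26, adjusted p = 0.0042 in limma), Elavl4 by 1.70 (standard error 0.29, adjusted p = 0.0093), Gng3 by 1.65 (standard error 0.26, adjusted p = 0.0061) and Tpd52 by 1.61 (standard error 0.23, adjusted p = 0.0034). The smallest difference that passed was that of Epb4.1l4a, a FERM-domain protein gene, with 1.06. Each of the 18 was higher in Tp in scan 1 and in scan 3, and each had Tp replicate 3, which was not in the fit, above both Tn arrays. The Tp and Tn arrays of these scans are those that gave the calls, and Tp replicate 3 entered the choice of genes. This is therefore a description and no replication.

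The 8 lower genes were Lhx1, Lhx2 and Lhx9, both blood cell genes, Tnnc1, and the unassigned Phyhipl and Igfbpl1, of which Phyhipl was named after its values were seen. Lhx1 was lower by 5.38 on the log2 scale (limma estimate -5.38, standard error 0.30, adjusted p = 6.08e-05), Cxcl4 had -4.28 (standard error 0.26, adjusted p = 6.36e-05), C1qb -3.82 (standard error 0.24, adjusted p = 6.36e-05) and Lhx9 -2.33 (standard error 0.39, adjusted p = 0.0085). Lhx2 had -1.82 (adjusted p = 0.0020). All 8 were lower in scan 1 and in scan 3, with Tp replicate 3 below both Tn arrays, which is again a description. With the ring around each spot as background, 1 of the 47 genes passed in limma, C1qb (-1.62, adjusted p = 0.0323), with 0.128% of all probes called (28). At an unadjusted p of 0.05 with the ring, 23 of the 47 passed, against 1971 of all 21807 probes. Leaving out 1 of the 8 arrays left 12 to 21 of the 47 called, 12 without Tp replicate 1 or without either Tn array and 15 without Tp replicate 2. Epb4.1l4a, Gdap1l1 and Slc10a4 did not pass whichever of the 8 arrays was left out.

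The EGFP- cells of the head were compared with those of the trunk in the same fit. Of the 47 genes, 4 passed, 2 higher and 2 lower in Cn than in Tn, against 1.27% of all probes (0.523% higher and 0.743% lower) and 24.8% of the named probes that the study selected (11.1% higher and 13.7% lower). At an unadjusted p of 0.05, 20 of the 47 passed, against 2510 of all 21807 probes. The unadjusted count was not taken for the named probes that the study selected, so this is a description. Lhx2 was higher by 2.53 on the log2 scale (standard error 0.23, adjusted p = 0.000772 in limma). Gldc, the decarboxylase of the glycine cleavage system, had 2.39 and 2.66 in Cp, 3.87, 4.28 and 3.90 in Tp, 5.52 and 5.34 in Cn and 3.69 and 3.74 in Tn, and was higher in Cn by 1.71 (standard error 0.25, adjusted p = 0.0125). Its Tn level was the closest to Cp, with a margin of 1.03. Lhx1 was lower, with -2.29 (standard error 0.30, adjusted p = 0.0060). 2810406K13Rik, now Klhl35, a Kelch-like gene, had 3.76 and 3.64 in Cp, 6.82, 6.90 and 6.86 in Tp, 5.36 and 5.14 in Cn and 6.6 and 6.88 in Tn, and was lower by 1.49 (limma estimate -1.49, standard error 0.24, adjusted p = 0.0176). It was the 1 gene of the 4 in which both trunk groups lay above Cn.

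The other 43 genes did not pass, with differences from -1.0 for Lhx9 to 1.15 for Nsg2. The median difference of the 47 genes was 0.43, against -0.16 over all probes, and turned to -0.034 with the ring as background. Replicates 1 of Cn and Tn shared scan 1, in which the difference was 2.56 for Lhx2, 1.83 for Gldc, -1.70 for Lhx1 and -1.24 for 2810406K13Rik. With the scan as a block, Lhx2 and Gldc passed (adjusted p = 0.0146 and 0.0423 in limma), and Lhx1 (0.0568) and 2810406K13Rik (0.0560) did not. With the ring as background 0 of the 47 passed in limma, with 0.0321% of all probes called (7). At an unadjusted p under 0.05 with the ring, 16 of the 47 passed, against 2622 of all 21807 probes. Without Tn replicate 2 only Lhx2 passed, and without Tn replicate 1 or Cn replicate 1 2 genes did.

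**Figure D4:**
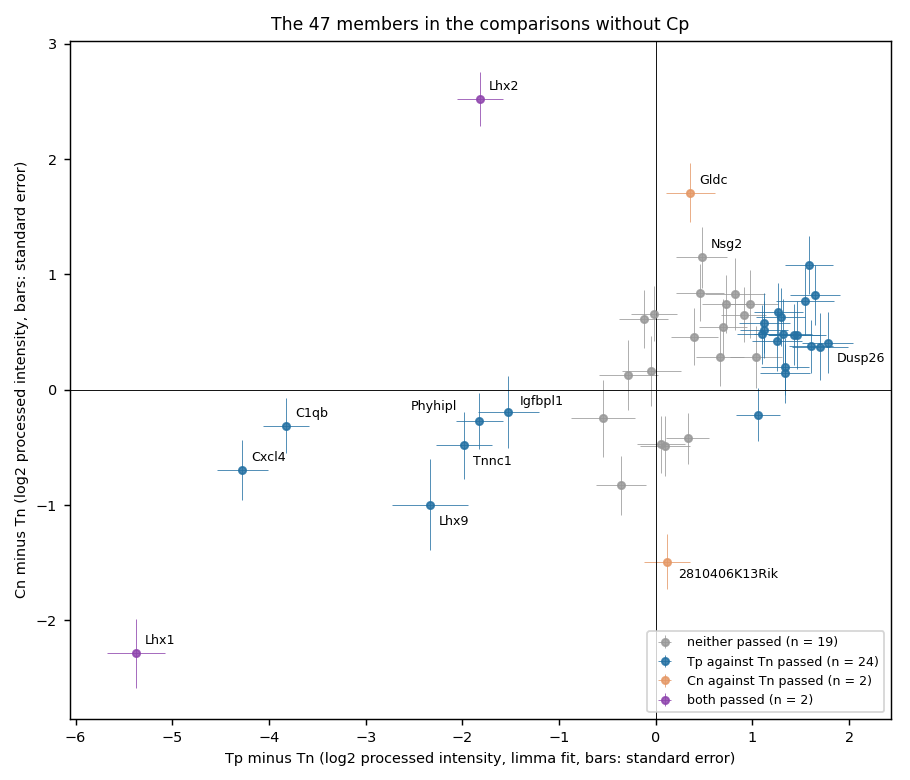
Differences of the 47 genes on the log2 scale from limma, Tp minus Tn (horizontal) against Cn minus Tn (vertical), with standard errors as bars and colours for the comparison passed at an adjusted p of 0.05. Lhx1 is far left and low, Lhx2 left and high, and the 18 genes higher in Tp lie to the right between 1.06 and 1.78; both axes share the Tn arrays, so the shape of the cloud is not a result.

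Over the 4 groups together, all 47 genes passed limma's F test, as the rule and the study's own choice of table ensure, and all 47 passed the one-way analysis of variance that the methods describe. Among all tested probes, 8.03% passed between Tp and Cp, 5.74% between Cn and Cp and 4.19% between Tn and Cp. The rule used those comparisons, and nothing is read from the genes' place in them.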

How the data were processed

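RNA of sorted cells was amplified and hybridised by the authors to 9 single-colour 3D-Gene arrays (Cy5). The authors deposited the scanner output and a table of processed intensity values, linear and with a median of 25 on every array. The sources used here give neither its formula nor its software. The values followed the spot minus a blank level times a factor per array (0.563 to 0.959 per reading unit). An empty cell took the lowest value on its array, and log2 was taken. These values were the main scale because the rule for the genes is written in them and the ring around a spot followed its signal (correlation across probes of the logs 0.909 to 0.985). This choice, the genes and the lists were made with earlier results of these data known.

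The 8 arrays of the study's table entered 1 fit of the 4 groups without a block in limma 3.58.1 (R 4.3.3), over 21807 probes above the blank limit on 2 or more of these arrays. It left 4 residual degrees of freedom, and p-values were adjusted by the Benjamini-Hochberg method. Tp replicate 3 is outside that table and entered only an alternative. Flagged spots were left out of the scanner intensities. Alternatives changed the background, normalization, filter, arrays and blocks. The fit was tested on simulated data.

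Genes were named by rule: up to 5 per role with the largest margin, the 4 most extreme differences in each direction that passed, and 2 genes on each side of the margin. Names came from the study's table and coordinates and promoters from RefSeq (GRCm38.p6, 47 genes matched, 10 of them by an older symbol). Probe sequences were not used here, so a level is that of 1 probe. Of the 47 genes, 1 is counted but not reported by name here.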

Additional observations from a re-analysis of the deposited data

Results flagged for a closer look

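For 28 of the 47 genes, EGFP+ cells lay above EGFP- cells on every array of the trunk and below them on every array of the head. The head direction was fixed for all 47 by the way the genes were chosen. The 28 are thus the genes with every Tp array above every Tn array, which held for 8.96% of all probes. That share was not taken for the 306 named probes that the study selected. By the other measure, limma, 39.9% of those probes passed as higher in Tp than in Tn, and 18 of the 47 genes did. The count of 28 is a description, and the difference between the regions was not tested.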

How the results depend on the processing

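The number of genes that the rule finds was 47 with empty cells left out, 44 to 57 with 1 array left out and 47 after quantile normalization, which shared 42 of the genes. It was 3 with the ring as background, 12 and 24 with the blank spots as background (normexp offsets 50 and 16), and 67 and 16 with a margin of 0.5 or 2. With either blank setting all 47 genes kept every other array above both Cp arrays, and with the ring 30 did. Genes called between Cn and Tn were 4 at first, 0 with the ring, 8 with the blank spots at offset 16, 2 with the scan as a block and 1 to 4 with 1 array left out. Between Tp and Tn they were 26 at first, 1 with the ring, 24 to 29 under the other alternatives and 12 to 21 with 1 array left out. Of all probes, 276 and 1152 were called at first, 7 and 28 with the ring, 119 to 268 and 700 to 1079 with 1 array left out, and 1886 between Tp and Tn with the scan as a block. In limma with the replicate block, 4 and 29 of the genes and 440 and 1481 of all probes were called. The labels give no shared litter or day, and same-numbered arrays had correlated deviations of 0.08 to 0.42 over 6 pairs of groups. The block's count between Cn and Tn over all probes was above 1.5 times the first.

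With the ring, Epb4.1l4a had -0.0216 for Tp against Tn and Lhx1 -0.0219 for Tp against Cp, each turned in sign. So did 14 of the 43 genes that had not passed between Cn and Tn, among them Krt14 (0.66 to -0.43), Vil2 (0.20 to -0.41) and Cxcl4 (-0.70 to 0.09), and 7 of the 21 between Tp and Tn, among them Mllt11 (0.91 to -0.58). Other alternatives turned at most 3 of the 47. The cause was not tested. Quantile normalization moved the median of all probes between Cn and Tn from -0.16 to -0.0046, that of the 47 genes from 0.43 to 0.57 (-0.034 with the ring), and the calls from 114 higher and 162 lower to 170 and 144. With the ring the calls were 5 higher and 2 lower, and 18 and 10 for Tp against Tn. The median difference from Cp with the ring was 0.64 in Tp, 0.73 in Cn and 0.60 in Tn. Low signal over background limits every value near the blanks, Cp above all, and 2 arrays a group limit all tests.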
